A study of Mus musculus with 6 samples.

Results

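Prostaglandin synthesis enzymes and receptors were examined in mouse embryonic fibroblasts (MEFs) by RNA sequencing. The 10 genes were chosen by symbol, with earlier results of these same libraries known: the cyclooxygenases Ptgs1 and Ptgs2, the terminal synthases Ptges, Ptges2, Ptges3 and Ptgis, the receptors Ptger2, Ptger4 and Ptgfr, and the dehydrogenase Hpgd. Of these, 9 had a row in the deposited table of 26231 genes, and Hpgd was not analysed here. The choice named both contrasts described below, the lines against each other and replicate 2 against replicates 1 and 3, so the members' differences in these contrasts are given as a description, without p-values.

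The study asked how loss of Nf2, which encodes the tumor suppressor Merlin, alters gene expression, and it compared 3 libraries labelled MEF WT (control) with 3 labelled MEF Nf2 KO. Both lines came from FVB embryos of about 14 days by the labels, carried Nf2 alleles flanked by loxP sites (Nf2fl/fl) and were immortalized with SV40 large T antigen lentivirus. According to the study's methods, the control line then received a CMV-GFP vector lentivirus and the other line a CMV-Cre GFP lentivirus. Both were kept in serum-free medium for 24 h before RNA extraction. The replicates carry the marks A (replicate 1), B (replicate 2) and 2018 (replicate 3) in both lines. There was 1 line of each kind, so an effect of Nf2 loss and any other difference between the lines cannot be told apart. The labels do not say whether replicates were separate cultures, and the p-values below then measure only the spread between these libraries.

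Prostaglandins are made from arachidonate, which phospholipases release from membranes. A cyclooxygenase, either the constitutive COX-1 (Ptgs1) or the inducible COX-2 (Ptgs2), converts arachidonate to the unstable prostaglandin H2. Terminal synthases turn this into prostaglandin E2, prostacyclin or other prostanoids, which leave the cell, act on G protein-coupled receptors and are inactivated by the dehydrogenase 15-PGDH (Hpgd). Fibroblasts are a well-known source of prostaglandin E2, and COX-2 in fibroblasts is a classical immediate early gene, raised rapidly by serum, growth factors and cytokines.

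The promoter stretches of 3 members are shown because their RNAs followed different patterns across the libraries: Ptgs1 differed between the lines, Ptgs2 between the replicates, and Ptges was lower under the MEF Nf2 KO label with a wider spread. Each stretch holds the 75 bases before the RefSeq start and the 30 bases from the start on (GRCm38.p6). The stretches lie at chr2:36230351-36230455 on the plus strand for Ptgs1, at chr1:150099956-150100060 on the plus strand for Ptgs2, and at chr2:30903268-30903372 on the minus strand for Ptges. They read 5′ to 3′ along each gene, and capitals mark matches to the motifs named in the next paragraph.
Ptgs1: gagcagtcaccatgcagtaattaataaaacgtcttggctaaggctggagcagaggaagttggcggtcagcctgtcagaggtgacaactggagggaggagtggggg
Ptgs2: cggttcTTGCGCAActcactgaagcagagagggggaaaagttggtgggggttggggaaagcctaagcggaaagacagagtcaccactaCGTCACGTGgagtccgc
Ptges: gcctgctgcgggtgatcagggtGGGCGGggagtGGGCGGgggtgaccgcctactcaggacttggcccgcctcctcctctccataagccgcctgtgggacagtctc

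A set of 5 short motifs was searched on both strands in the window from 250 bases before to 50 after each start: the core of the cAMP response element (TGACG), the E-box (CACGTG), the C/EBP palindrome (TTGCGCAA), the TATA box (TATAAA) and the GC box (GGGCGG). The Ptgs2 window held the C/EBP palindrome at position -69, with the start base counted as 1 and the base before it as -1. It also held the core of the cAMP response element on the opposite strand at position 14, where it overlapped an E-box at position 17, and a GC box at position -170, outside the stretch shown. Among 32851 RefSeq promoter windows of the same length, 0.183% held the C/EBP palindrome, 20.8% the cAMP response element core, 7.15% the E-box, 13.6% the TATA box and 35.7% the GC box. Ptges held GC boxes at positions -53 and -42, and none of the 5 motifs was found in the Ptgs1 window. Members not shown held matches too. Ptges3 had the cAMP response element core on the opposite strand at position 12, and Ptges2 had an E-box at position -77. GC boxes were also found in the windows of Ptges3, Ptger4 and Ptgfr. These matches describe the letters in the windows and are not measured binding sites.

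The table gives 1 RPKM value (reads per kilobase of exon, scaled to the depth of the library) for each gene and library. Depth, worked out from the steps of low values, was 13462403 to 19288131 reads for replicates 1 and 2 and 61238734 to 73093047 for replicate 3. Nf2 (chromosome 11, 4765845 to 4849536) was at 14.3, 13.7 and 13.1 RPKM in MEF WT replicates 1, 2 and 3, and at 15.4, 12.9 and 13.9 RPKM in the corresponding libraries labelled MEF Nf2 KO. The Nf2 values overlapped, so every direction between the lines rests on the labels. Replicate 2 stood apart in both lines on the first principal component, which held 50.3% of the variance. Among fibroblast markers, 7 of 8 were at 1 RPKM or more in every library, led by the intermediate filament gene Vim (536 to 882 RPKM), while Pdgfra, the PDGF receptor alpha chain, reached only 0.657 to 1.42 RPKM under the MEF Nf2 KO label and 5.22 to 12.3 in MEF WT.

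Expression differed widely between members. Since RPKM is scaled to exon length, levels can be compared between genes. In MEF WT the order of mean RPKM was Ptges3, Ptgs2, Ptges, Ptgs1, Ptges2, Ptger4, Ptgfr, Ptgis and Ptger2. The ranges of Ptges3 and Ptgs2 overlapped there, as did those of Ptger4 and Ptgfr, Ptgfr and Ptgis, and Ptgis and Ptger2. For the libraries labelled MEF Nf2 KO the order was the same except that Ptgs1 came after Ptges2, and the ranges of Ptges and Ptges2 overlapped, as did those of Ptgfr and Ptgis. Thus Ptgs1 ranked between Ptges and Ptges2 in one line and below both in the other, without overlap with its neighbours in either.

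Only 5 of the 9 members reached 1 RPKM in at least 3 libraries and were among the 11067 genes tested: Ptgs1, Ptgs2, Ptges, Ptges2 and Ptges3. Ptgs1 passed this filter only through MEF WT. Ptgis, Ptger2, Ptger4 and Ptgfr stayed below 1 RPKM in all 6 libraries.

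**Figure D1:**
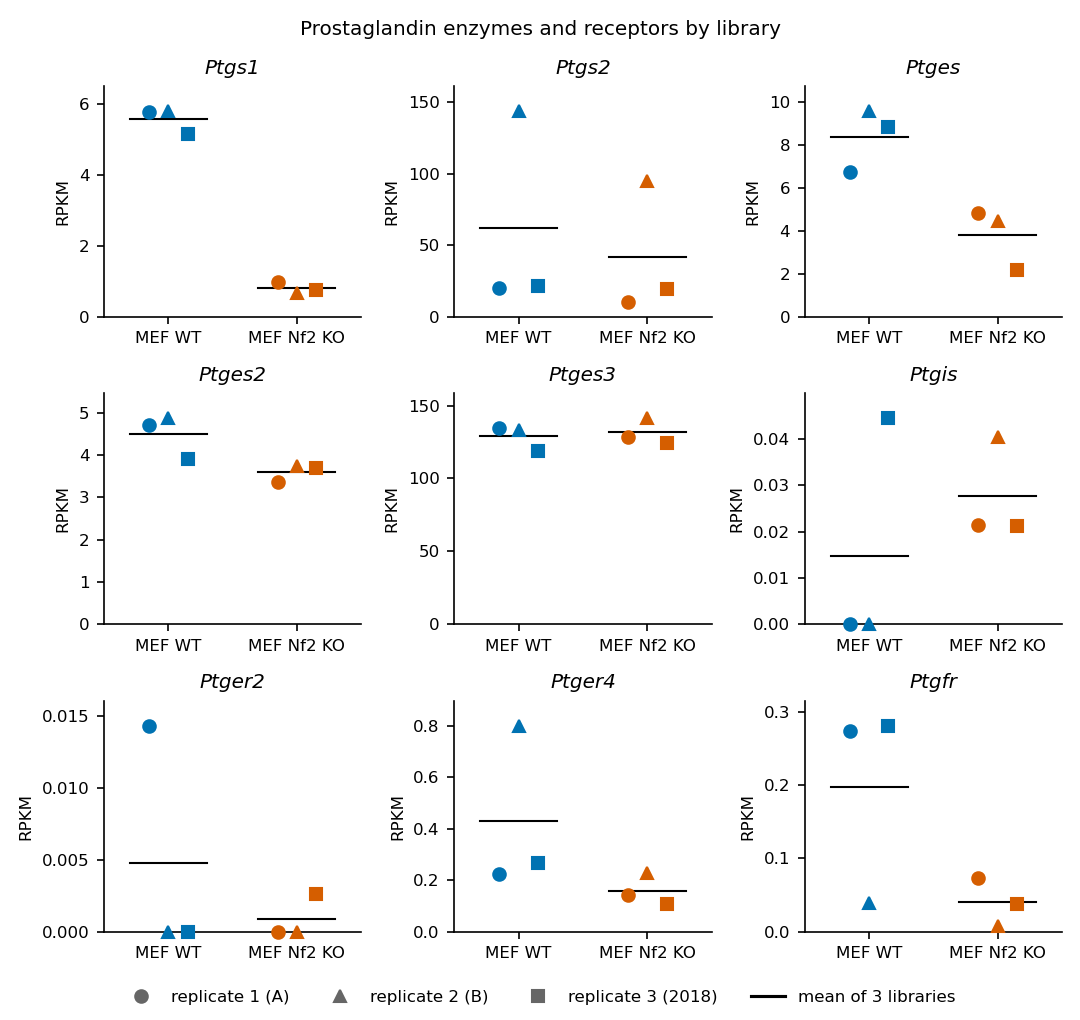
RPKM of the 9 prostaglandin enzymes and receptors in each library, with MEF WT in blue and the libraries labelled MEF Nf2 KO in orange, symbols for replicates 1, 2 and 3, and a line at the mean of 3 libraries; each panel has its own axis from 0. Ptgs1 separates the lines (5.13 to 5.80 against 0.681 to 0.968 RPKM), whereas Ptgs2 is high in replicate 2 of both.

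Ptgs1 encodes COX-1, the cyclooxygenase that most cells make without a stimulus. The gene (ENSMUSG00000047250.13) lies on chromosome 2, 36230426 to 36252272, plus strand. Its level was 5.76, 5.80 and 5.13 RPKM in MEF WT replicates 1, 2 and 3, and 0.968, 0.681 and 0.764 RPKM in the same replicates labelled MEF Nf2 KO. The lines did not overlap, and the 3 values within each line lay close together, with replicate 2 no exception. The means were 5.56 ± 0.374 and 0.804 ± 0.148 RPKM (SD, n = 3 each), a ratio of 0.145. These values rest on 301, 427 and 1220 reads in MEF WT and on 68, 51 and 217 reads in the libraries labelled MEF Nf2 KO. The library with the fewest reads had a counting interval (95%, exact Poisson) of 0.507 to 0.895 RPKM, below every MEF WT value. On the log2(RPKM + 1) scale, which understates changes of low genes, the difference was -1.86 with a standard error of 0.11, and by replicate number it was -1.78, -2.02 and -1.80. With a pseudocount of 0.1 it was -2.66, and with voom on recovered reads -2.79. Replicate 2 differed from replicates 1 and 3 by -0.03 (standard error 0.10).

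Ptgs2, which encodes the inducible COX-2, followed the replicates instead. This gene (ENSMUSG00000032487.8) lies on chromosome 1, 150100031 to 150108227, plus strand. It was at 20.3, 144 and 21.4 RPKM in MEF WT replicates 1, 2 and 3, and at 10.2, 94.8 and 19.7 RPKM in those labelled MEF Nf2 KO. Replicate 2 was the highest in both lines, and the lines overlapped. The ratio of replicate 2 to the mean of replicates 1 and 3 was 6.91 in MEF WT and 6.33 in the libraries labelled MEF Nf2 KO. The log2(RPKM + 1) difference between replicate 2 and the others, with the line as a covariate, was 2.69 with a standard error of 0.22, from 8379 to 12507 reads in replicate 2 and 847 to 6607 in the others.

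Between the lines Ptgs2 differed by -0.54 on the log2(RPKM + 1) scale with a standard error of 1.01, which is less than its spread between libraries. With the replicate number as a block the same difference had a standard error of 0.16. Each library labelled MEF Nf2 KO was lower than the MEF WT library of the same number, by -0.92, -0.60 and -0.11 for replicates 1, 2 and 3. The unblocked difference turned with 1 library: it was 0.12 without MEF Nf2 KO replicate 1, 0.37 without MEF WT replicate 2 and -1.43 without MEF Nf2 KO replicate 2.

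The balance of the cyclooxygenase RNAs varied by both line and replicate. The ratio of Ptgs2 to Ptgs1 RPKM was 3.52, 24.8 and 4.18 in MEF WT replicates 1, 2 and 3, and 10.6, 139 and 25.8 in those labelled MEF Nf2 KO. Within each replicate number the ratio was higher under the MEF Nf2 KO label, and within each line it was highest in replicate 2. Ptgs2 RNA exceeded Ptgs1 RNA in every library.

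**Figure D2:**
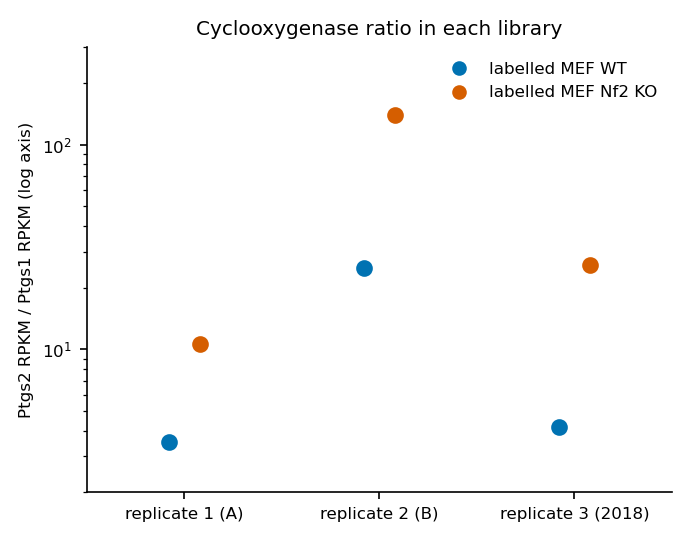
Ratio of Ptgs2 to Ptgs1 RPKM in each of the 6 libraries, by replicate number, on a log axis; blue points are MEF WT and orange points the libraries labelled MEF Nf2 KO. The ratio runs from 3.52 in MEF WT replicate 1 to 139 in MEF Nf2 KO replicate 2.

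Whether the replicate 2 difference itself varied between the lines was not part of the choice of members and could be tested, with an interaction term in limma that was added after the data were seen. For Ptgs2 the interaction was -0.08 on the log2 scale with a 95% interval of -1.33 to 1.17 (adjusted p = 1.00 from limma). It was -0.23 for Ptgs1 (-0.74 to 0.28), 0.05 for Ptges (-1.27 to 1.38), -0.09 for Ptges2 (-0.58 to 0.40) and 0.09 for Ptges3 (-0.42 to 0.59), all with adjusted p = 1.00. Of the 11067 genes, 0 passed (background 0%), 313 had an unadjusted p under 0.05, and voom on recovered reads also called 0. These intervals are wide for Ptgs2 and Ptges, and a difference between the lines that lies within them was not detectable with these libraries.

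Among the terminal synthases, Ptges showed the larger difference between the lines. It encodes the inducible microsomal prostaglandin E synthase that works with COX-2 (ENSMUSG00000050737.13, chromosome 2, 30889471 to 30929863, minus strand). Its level was 6.73, 9.60 and 8.86 RPKM in MEF WT replicates 1, 2 and 3, and 4.82, 4.44 and 2.20 RPKM in the replicates labelled MEF Nf2 KO. The lines did not overlap, and the lowest value was that of MEF Nf2 KO replicate 3. The means were 8.40 ± 1.49 and 3.82 ± 1.42 RPKM (SD, n = 3 each), and the log2(RPKM + 1) difference was -0.998 (standard error 0.25). By replicate number it was -0.41, -0.96 and -1.62, a range wider than that of Ptgs1, and voom on recovered reads gave -1.43. Replicate 2 differed from the others by 0.31 (standard error 0.23).

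The other prostaglandin E synthases varied less. Ptges2, a membrane-associated synthase (chromosome 2, 32395896 to 32405772), was at 4.70, 4.87 and 3.91 RPKM in MEF WT and at 3.37, 3.73 and 3.69 RPKM under the MEF Nf2 KO label, in the order of replicates 1, 2 and 3. The lines did not overlap, although MEF WT replicate 3 lay close to the highest of the other line. The log2(RPKM + 1) difference was -0.25 (standard error 0.11).

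Ptges3, also known as the HSP90 co-chaperone p23 (chromosome 10, 128058954 to 128077272), was the highest member by mean, at 135, 133 and 119 RPKM in MEF WT and 129, 141 and 125 RPKM under the MEF Nf2 KO label. Its lines overlapped, with a log2(RPKM + 1) difference of 0.03 and a 95% interval of -0.21 to 0.27. However, 20.6% of the 31-base stretches of Ptges3 also occur elsewhere, chiefly in the pseudogene Ptges3-ps, and how the counting split such reads is not given in the sources used here. Ptgis, the prostacyclin synthase (chromosome 2, 167191805 to 167240604), was nearly silent. It had 0, 0 and 7 reads in MEF WT and 1, 2 and 4 reads in those labelled MEF Nf2 KO, and the highest value was 0.0445 RPKM.

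**Figure D3:**
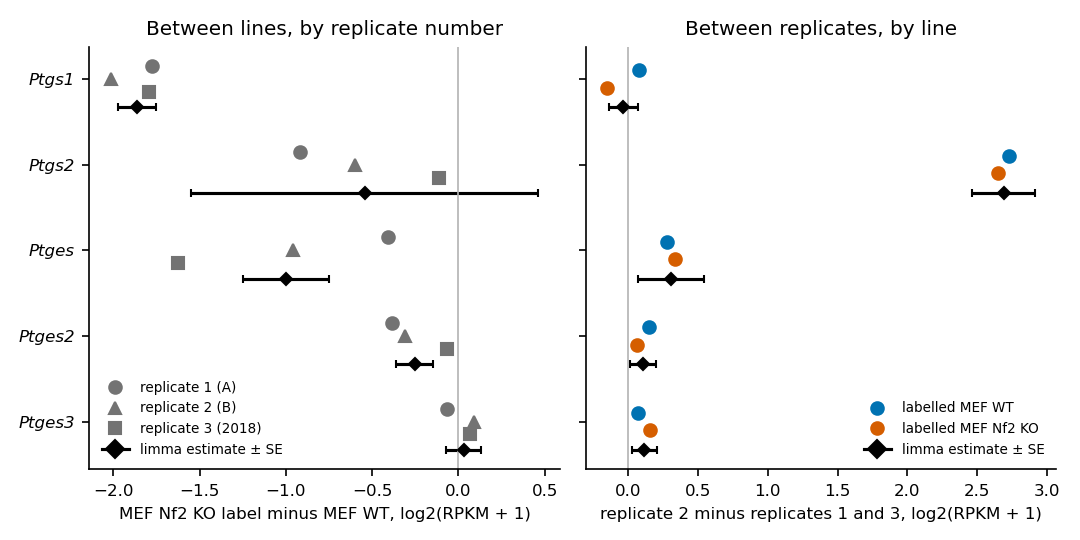
Differences on the log2(RPKM + 1) scale for the 5 members past the filter: on the left between the lines, with each replicate number as a gray symbol, and on the right replicate 2 minus replicates 1 and 3, with each line as a coloured point; black diamonds are limma estimates with standard errors. Ptgs1, Ptgs2, Ptges and Ptges2 lie left of 0 in the line panel at each replicate number, and in the replicate panel Ptgs2 stands at 2.69.

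Receptor RNAs were low. Ptger4 encodes EP4, a prostaglandin E2 receptor that raises cAMP (chromosome 15, 5206661 to 5244187). It was at 0.223, 0.801 and 0.267 RPKM in MEF WT replicates 1, 2 and 3, and at 0.141, 0.226 and 0.108 RPKM in the replicates labelled MEF Nf2 KO. Replicate 2 was the highest within each line, and the lines overlapped. The MEF WT replicate 2 value, from 101 reads, had a counting interval of 0.653 to 0.973 RPKM, above the intervals of the other 5 libraries. In the MEF Nf2 KO label, replicate 2 rested on 29 reads (0.151 to 0.325 RPKM) and its interval overlapped that of replicate 1 (0.0824 to 0.226 RPKM) but lay above that of replicate 3 (0.0817 to 0.143 RPKM). Ptger4 overlaps Ttc33 on the opposite strand, and whether the counting used strand is not given in the sources used here.

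Ptgfr, the receptor for prostaglandin F2 alpha (chromosome 3, 151796502 to 151837630), was lowest in replicate 2, where Ptger4 was highest within each line. Its level was 0.274, 0.0389 and 0.282 RPKM in MEF WT, from 25, 5 and 117 reads, and 0.0734, 0.00765 and 0.0384 RPKM under the MEF Nf2 KO label, from 9, 1 and 19 reads. In MEF WT the counting interval of replicate 2 (0.0126 to 0.0908 RPKM) lay below those of replicates 1 and 3, and in the other line the interval of replicate 2 (0.000194 to 0.0426 RPKM) overlapped both others.

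Ptger2 encodes EP2, the other cAMP-raising prostaglandin E2 receptor (chromosome 14, 44988195 to 45003820). It had 1 read in MEF WT replicate 1, 1 read in MEF Nf2 KO replicate 3 and 0 in the other 4 libraries, where the level of 3 reads, taken as the limit that a count of 0 allows, was 0.00943 to 0.0319 RPKM. Intervals and limits cover counting error only. Transcripts of EP2 and of prostacyclin synthase were thus near or under the limit of detection, and their order says little.

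In the limma fit over all genes, 1 of the 5 tested members (Ptgs1) passed an adjusted p of 0.05 between the lines, beside 1.06% of the 11067 genes. With the replicate block it was also 1, beside 7.53%, and with voom on recovered reads 1, beside 1.37%. The lines did not overlap in 3 members (Ptgs1, Ptges and Ptges2), beside 15.1% of genes. For replicate 2 against the others, 1 member (Ptgs2) passed, beside 30.6%, and 1 member had both replicate 2 libraries outside the other 4, beside 46.6%. The median difference of the 5 members was -0.54 between the lines, where that of all genes was -0.0078, and 0.11 for replicate 2, where that of all genes was -0.08. The line median is the value of Ptgs2 itself, whose lines overlapped. Because the members were chosen on these contrasts, nothing follows from the counts or the medians. Without replicate 1 of both lines, or without replicate 3, no gene passed between the lines, Ptgs1 included (578 and 556 genes at an unadjusted p under 0.05). The Ptgs1 difference was -1.91 and -1.90 in these fits, against -1.86 with all libraries.

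Beyond the members, 76 genes of the arachidonate and prostanoid pathway and of COX-2 regulation were followed in 7 lists, of which 45 were tested, 28 stayed under the filter and 3 were not analysed here. Between the lines, 0 of the 45 passed in limma, beside 1.06% of all genes, and 2 with voom on recovered reads, beside 1.37%. At an unadjusted p under 0.05 in limma were 11 of the 45, and 1097 of the 11067 genes tested. With the replicate block 10 passed, beside the 7.53% of all genes, 3 higher and 7 lower under the MEF Nf2 KO label. These 10 are named here because the block moved them, after their values were seen. Higher were the phospholipase Pla2g6 (log2 difference 0.40), the NF-kappa-B subunit Nfkb1 (0.45) and the cAMP-induced kinase Sik1 (0.49). Lower were the growth factor Areg (-1.28), the AP-1 subunit Jun (-1.10), the interleukin-1 receptor Il1r1 (-0.79), the prostaglandin reductase Zadh2 (-0.53), the transcription factor Cebpb (-0.49), the diacylglycerol lipase Dagla and the prostaglandin F receptor inhibitor Ptgfrn (both -0.40). Their adjusted p-values from limma ran from 0.00243 to 0.0326 with the block and from 0.0553 to 0.731 without it.

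In replicate 2, by contrast, 20 of the 45 passed in limma, 11 higher and 9 lower than replicates 1 and 3, beside 30.6% of all genes. Over all genes 1195 were higher and 2191 lower, a split that became 1698 and 1536 with median centring and 1553 and 1412 with quantile normalization. The list genes gave 14 higher and 8 lower, and 11 and 7, under these scalings. None of the 20 genes turned direction under any of 16 alternatives. The median of the 45 was -0.05 and that of all genes -0.08.

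Of the genes known to regulate COX-2, 5 of the 14 tested were higher in replicate 2, none was lower and 9 did not pass, beside 30.6% of all genes called in either direction. Egr1, an immediate early transcription factor, was at 9.24, 79.3 and 13.9 RPKM in MEF WT replicates 1, 2 and 3, and at 6.85, 44.9 and 4.78 RPKM in those labelled MEF Nf2 KO. Replicate 2 was thus far above the others in both lines, with a log2 difference of 2.73 (standard error 0.18, adjusted p = 0.000736 from limma). Jun, an AP-1 subunit, was at 35.0, 71.2 and 33.7 RPKM in MEF WT and at 16.0, 33 and 14.7 RPKM under the other label, a log2 difference of 1.04 (standard error 0.07, adjusted p = 0.000689). Its partner Fos (0.99) and the NF-kappa-B inhibitor Nfkbia (0.91) also passed, as did the subunit Rela by a smaller step (0.28, adjusted p = 0.0429). Anxa1, an inhibitor of phospholipase activity and the highest gene of that list at 236 to 335 RPKM, differed by 0.33 (adjusted p = 0.0525).

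Among cAMP-induced genes, 4 of 9 were higher in replicate 2 and 1 was lower, beside 30.6% of all genes called in either direction. Has2, a hyaluronan synthase, was at 4.75, 22.4 and 6.15 RPKM in MEF WT replicates 1, 2 and 3, and at 9.45, 27.7 and 6.75 RPKM in those labelled MEF Nf2 KO, so replicate 2 was the highest in each line. Its log2 difference was 1.77 (standard error 0.14, adjusted p = 0.000994 from limma). The nuclear receptor Nr4a1 (1.54), the phosphatase Dusp1 (0.72), which was the highest of the list by mean, and Areg (0.49) were higher too. Pde4b, a phosphodiesterase that breaks down cAMP, was lower (-0.45).

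All 5 transport and inactivation genes were tested, and in replicate 2 the 2 transporters were higher while 2 of the 3 reductases were lower. Over all genes 30.6% were called, 1195 higher and 2191 lower, and the counts of the next lists stand beside the same share. The prostaglandin uptake carrier Slco2a1 was higher by 0.46 and the efflux pump Abcc4 by 0.48. Prostaglandin reductases were lower, Zadh2 by -0.78 and Ptgr1, the highest of the list, by -0.61. Of the other terminal synthases, 2 of 3 tested were lower: Cbr1, a carbonyl reductase that converts prostaglandin E2 (-0.49), and Prxl2b, a prostaglandin F synthase listed as Fam213b (-0.51). In the lipoxygenase and epoxide branches 2 of 5 were lower, Lta4h, the leukotriene A4 hydrolase (-0.37), and Ephx1, the microsomal epoxide hydrolase and highest of its list at 73.5 to 142 RPKM (-0.65).

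Of 7 tested genes for release and re-uptake of arachidonate, 2 were lower in replicate 2 and none higher, a share close to the 30.6% of all genes: Lpcat3, an acyltransferase and the highest of the list (-0.70), and Acsl4, which activates arachidonate (-0.42). The cytosolic phospholipase Pla2g4a, which supplies cyclooxygenases, was at 12.8, 18.2 and 15.0 RPKM in MEF WT replicates 1, 2 and 3 and at 13.6, 18.6 and 16.8 RPKM in those labelled MEF Nf2 KO, and its difference of 0.33 did not pass (adjusted p = 0.0543 from limma). Akr1b3, an aldose reductase and the highest of the other terminal synthases, differed by -0.29 without passing (adjusted p = 0.120). Neither of the 2 tested genes in the list of other prostanoid receptors passed. They were Ptgfrn, the receptor inhibitor named above and the highest of that list (-0.17), and the receptor gene Ptger1 (-0.30, at 0.629 to 1.26 RPKM).

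Egr1, Has2, Nfkbia and Nr4a1 passed under all 16 alternatives. Acsl4 lost its call in 10 of them, Rela in 9, Slco2a1 in 8 and Areg in 6. Without MEF Nf2 KO replicate 2 the list genes past the threshold fell to 7 of 45, and without MEF WT replicate 2 to 8, with the lone replicate 2 library then assumed to vary like the rest. The interaction with the line passed in 0 of the 45 genes (3 at an unadjusted p under 0.05). What set the B libraries apart is not given by the labels, and it cannot be told apart from the other features of that replicate.

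**Figure D4:**
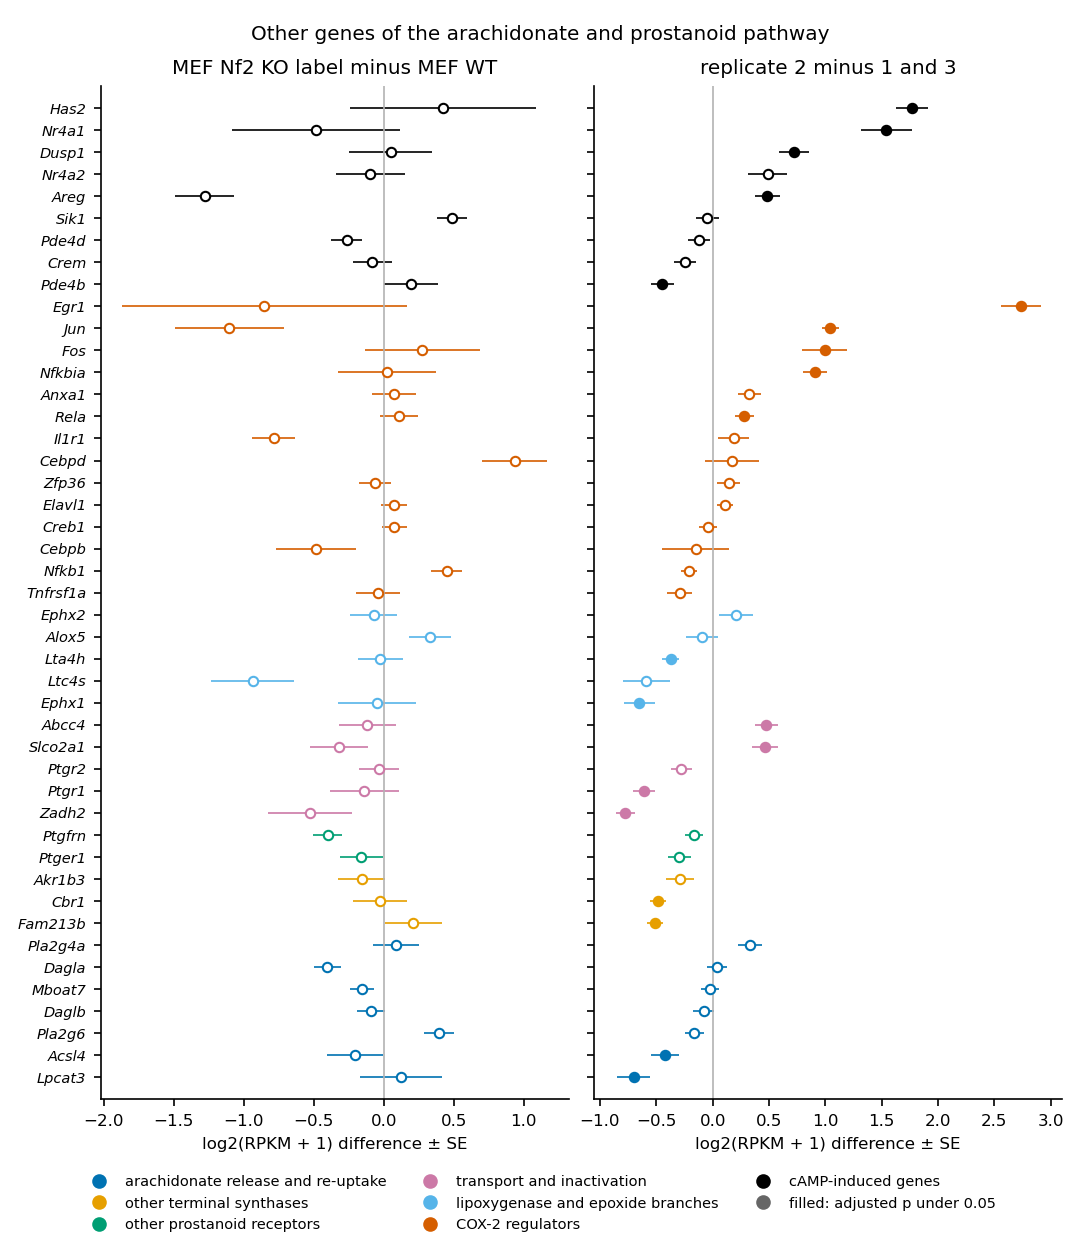
Differences on the log2(RPKM + 1) scale, with standard errors, of the 45 tested pathway genes, between the lines on the left and between replicate 2 and replicates 1 and 3 on the right; colours give the list and filled points an adjusted p under 0.05 in limma. No point is filled for the lines, and 20 are filled for replicate 2, led by Egr1 at 2.73 and Has2 at 1.77.

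The cyclooxygenases differed in which other genes tracked them. The genes most like Ptgs1 over the 6 libraries, by Pearson correlation of log2(RPKM + 1), were Trim47 and Epb41l1 (r = 0.993 each) and Spef1 (r = 0.991), and 94 genes exceeded 0.95. For Ptgs2 they were Rras2, Metrnl and Cops8 (r = 0.996 each), with 250 genes above 0.95. Metrnl, for example, was at 14.3, 54.0 and 15.0 RPKM in MEF WT and at 8.57, 35.4 and 12.8 RPKM in the other libraries, the same order as Ptgs2. With 6 libraries in which a single line or replicate stands apart, many genes reach such values, and all share the same libraries.

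Markers of other cell types were read beside these results, since in bulk RNA fewer cells of a type and less RNA per cell cannot be told apart. Of 8 macrophage markers, 2 were at 1 RPKM or more in every library, led by Cd68 (5.08 to 8.10 RPKM), and Ptprc, which marks leukocytes, was at most 0.00896 RPKM. The summed level of that list was 9.27 to 12.0 RPKM in MEF WT and 7.68 to 9.44 in the libraries labelled MEF Nf2 KO. Mast cell and platelet markers, of interest because platelets are rich in COX-1, had 0 of 5 genes at 1 RPKM everywhere, were led by Itga2b, and summed to 1.04 to 1.32 and 0.90 to 1.16 RPKM. Skeletal muscle markers, led by Des, had 0 of 4 and summed to at most 0.566 RPKM.

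The summed levels of 3 lists differed between replicate 2 and the others without overlap, each through a single gene. Endothelial markers summed to 3.89 to 4.45 RPKM in replicate 2 and 1.46 to 1.84 in the others, almost entirely through Kdr (1 of 6 genes at 1 RPKM everywhere, adjusted p = 0.00165 from limma), while Pecam1 was at most 0.0286 RPKM. Epithelial markers summed to 27.9 to 39.8 against 10.8 to 23.6 RPKM through Krt19 (1 of 6, adjusted p = 0.0506, not passing), with Epcam at most 0.216 RPKM. Mesothelial markers summed to 5.59 to 8.09 against 9.89 to 21.4 RPKM, through Msln (1 of 5, adjusted p = 0.0507, not passing), with Wt1 at most 0.00892 RPKM. The fibroblast list summed to 1853 to 2550 RPKM in MEF WT and 1444 to 1876 in the libraries labelled MEF Nf2 KO, and to 1444 to 1853 in replicate 2 against 1654 to 2550 in the others. These overlapping sums are led by abundant genes such as Vim, and 5 of the 8 fibroblast markers were lower in replicate 2 in limma, beside 30.6% of all genes. None was higher as tested, but Thy1 passed as higher with median centring (log2 difference 0.55, adjusted p = 0.0469), with quantile normalization (0.59, adjusted p = 0.0497), without MEF WT replicate 3 (0.61, adjusted p = 0.0146) and without replicate 3 of both lines (0.67, adjusted p = 0.0109). The ratio of replicate 2 to the mean of the others was 0.179 for the collagen gene Col3a1 (adjusted p = 0.00159), 0.310 for the PDGF receptor beta chain Pdgfrb (adjusted p = 0.00131), 0.409 for Col1a2 (adjusted p = 0.00147), 0.445 for Pdgfra (adjusted p = 0.0177) and 0.595 for Col1a1 (adjusted p = 0.00828). Col3a1, Pdgfrb and Col1a2 passed under all 16 alternatives. Col1a1 lost its call without MEF Nf2 KO replicate 2 (adjusted p = 0.131), without the line covariate (0.0598) and without the filter (0.0601). Pdgfra lost it without MEF WT replicate 2 (adjusted p = 0.180), without MEF WT replicate 3 (0.0509), without replicate 1 of both lines (0.109), without the covariate (0.645), without the filter (0.0999) and with quantile normalization (0.0618).

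Between the lines, where Ptgs1 and Ptges differed, 4 fibroblast markers were lower without overlap under the MEF Nf2 KO label: Pdgfra, Thy1, Vim and Fn1, beside 15.1% of all genes. In limma 2 of the 8 passed, beside 1.06% of all genes: Pdgfra (log2 difference -2.35, adjusted p = 0.0329) and the fibronectin gene Fn1 (-0.63, adjusted p = 0.0390). With the replicate block Thy1 (-0.95, adjusted p = 0.00716) and Col3a1 (-1.01, adjusted p = 0.0274) passed too, beside 7.53%. Leaving out any 1 library ended the call of Fn1 (adjusted p = 0.0709 to 0.175), and leaving out any but MEF WT replicate 2 that of Pdgfra (adjusted p = 0.0612 to 0.145). Both calls were also lost with the 2018 mark as a covariate (adjusted p = 0.0665 each) and without the filter (0.137 for Pdgfra and 0.134 for Fn1), and that of Fn1 with quantile normalization (0.0625). Without replicate 1 or 3 of both lines both were lost (adjusted p = 0.494 to 0.589). Without replicate 2 of both lines, a fit in which 484 genes passed, both were kept (adjusted p = 0.000324 for Pdgfra and 0.0485 for Fn1). Thy1 passed there too (adjusted p = 0.0387). No list was at 0 throughout, and the part of these markers in the members' differences was not tested.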

How the data were processed

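Total RNA from 6 MEF libraries was sequenced and analysed by GENEWIZ for the authors. The authors deposited RPKM values, 1 per gene and library. The unit is inferred: multiplied by GENCODE vM21 exon length (26033 of 26231 genes), values up to 20 reads were whole multiples of 1 step per library within 0.1 reads in 85.9% to 87.4% of cases, which gives depths of 13462403 to 73093047 reads. The submitters' processing notes name mm10; the aligner and counter are not given in the sources used here. Very deep libraries (replicate 3) give the smallest counting error.

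Tests were run on genes that reached 1 RPKM in 3 or more libraries, with limma 3.58.1 in R 4.3.3 on log2(RPKM + 1), with a pseudocount of 1 (lmFit, then eBayes with its trend and robust options). Tests were two-sided, and p-values were adjusted by the Benjamini-Hochberg method across all tested genes, with a threshold of 0.05. The line was a covariate for replicate 2. Voom on recovered reads and the interaction term were chosen after seeing the data. Both lines carry the same replicate numbers, and deviations of same-numbered libraries correlated at 0.552, 0.819 and 0.516, so the numbers were treated as pairs and the blocked fit is given where it changes a call. The fits were also run on simulated libraries drawn independently of each other, and the outcome is not given here. That run held no shared replicate effect, so it cannot check the fits where same-numbered libraries deviate together.

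The members and gene lists were chosen with earlier results of these data known. Named are all members, list genes past the threshold in the unblocked line fit or the replicate 2 fit, the highest gene of each list, Nf2, and the 3 genes most correlated with Ptgs1 and Ptgs2; others are said to be chosen later. Pla2g4a, Ptger1 and the marker genes that do not lead their lists were named after their values were seen. Promoters are RefSeq windows of GRCm38.p6, which had entries for 8 of the 9 members. Python 3.11.15, pandas 2.3.3, numpy 2.4.6, scipy 1.17.1 and matplotlib 3.10.9 were used.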

Additional observations from a re-analysis of the deposited data

How the results depend on the processing

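Of 90 comparisons of a member's line difference with an alternative, 87 moved by less than 1 replicate SD, and the others were Ptgs1 and Ptges as given above. For replicate 2 and the interaction, the SD was taken over the other replicates of both lines, so it also held the line difference. On that scale all 80 moved by less than 1 SD for replicate 2. For the interaction 53 of 55 did so, Ptges3 being the exception. In RPKM, such an SD was 2.66 for Ptgs1, against 0.374 within MEF WT and 0.148 within the MEF Nf2 KO label. These counts therefore do not show that the moves of Ptgs1 were small against its spread within a line. Among 320 comparisons for the 20 list genes past the threshold in replicate 2, 257 kept the call, 63 lost it and 0 turned direction.

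The count of all genes past the threshold between the lines, 117 as reported, was 833 with the replicate block, 62 with the 2018 mark as a covariate, 9 without the filter on low values, 9 at an adjusted p under 0.01 and 211 under 0.1. It ranged from 0 to 484 when libraries or replicate numbers were left out: 10 and 18 without MEF Nf2 KO replicates 1 and 3, 11 and 10 without MEF WT replicates 1 and 3, 0 without replicate 1 or 3 of both lines, and 484 without replicate 2. The member count, 1 as reported, ranged from 0 to 1, and was 1 with the replicate block. The list count between the lines, 0 as reported, was 10 with the replicate block, 2 with voom, 2 at an adjusted p under 0.1, 1 without trend and robust settings, and 0 to 6 with libraries left out (1 without MEF Nf2 KO replicate 2, 6 without replicate 2 of both lines).

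For replicate 2, 3386 genes became 1976 without the line covariate and 884 without the filter, and 699 to 3375 with libraries left out (699 without MEF Nf2 KO replicate 2, 832 without MEF WT replicate 2). The list count, 20 as reported, became 13 and 9, and 7 to 23. For the interaction, 0 genes became 11 without MEF Nf2 KO replicate 1 and 16 without MEF Nf2 KO replicate 3, a range of 0 to 16, and the list count ranged from 0 to 1. The interaction could not be fitted without either replicate 2 library or with a whole replicate number left out, nor the replicate 2 difference without replicate 2 of both lines. Where a number is left with 1 library, that library is assumed to vary like the others. The cause of these changes was not tested.

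The receptors and Ptgis rest on at most 117 reads, so depth limits them most. Whether the unit is exactly RPKM is inferred from the values.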

Other observations

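Long noncoding RNAs that neighbour Ptgs2 lie outside the member list and were chosen after their values were seen. Ptgs2os lies on the opposite strand (chromosome 1, 150074873 to 150099963), begins 68 bases from the Ptgs2 start and runs away from it. It was at 0.497, 1.05 and 0.430 RPKM in MEF WT replicates 1, 2 and 3, and at 0.255, 0.599 and 0.385 RPKM in those labelled MEF Nf2 KO, so replicate 2 was the highest in each line, as for Ptgs2. Ptgs2os2, farther along the chromosome (150159043 to 150164948), was at 0.341, 0.725 and 0.524 RPKM in MEF WT and at 0.127, 0.178 and 0.0862 RPKM in the other libraries. Its lines did not overlap, as in 15.1% of the tested genes. Counting intervals were not worked out for either RNA, and values this low rest on few reads in the shallower libraries. Both fell under the filter on low values and were not tested.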
